A study of Mus musculus with 16 samples.

Results

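Gpnmb, Mmp12, Cd63, Lyz2 and Csf1r are expressed by cells of the mononuclear phagocyte lineage, though not all of them by those cells alone. Their levels were read in the livers of 16 male mice. They are 5 of the 7409 genes that could be named on the array. They were chosen by measured values of these same arrays: the first 4 are among the genes whose levels varied most from liver to liver, and Csf1r was taken with them as a general macrophage gene. Their spread over animals and their likeness to each other are therefore given as descriptions, with no support drawn from them. The groups were 7 Lactb transgenic mice and 9 wildtype mice of the FVB strain. All were male and 23 weeks old, and all had eaten chow with 4% fat up to 11 weeks and chow with 6% fat from then on. The labels give neither the promoter nor the line of the Lactb transgene, and no named probe reads Lactb, so the labels stand without a check of the transgene. Animals are numbered here within their genotype in the order of deposit, and the numbers pair nothing.

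Macrophages that take up lipid or cell debris load their lysosomes and switch on a shared set of genes, described in fatty liver, adipose tissue and atherosclerotic plaque. Gpnmb encodes a transmembrane glycoprotein of lysosomes and phagosomes whose outer part can be shed, Cd63 a tetraspanin of late endosomes and lysosomes, and Lyz2 the lysozyme of myeloid cells, which cuts bacterial cell walls. Mmp12 encodes macrophage elastase, a secreted metalloproteinase that degrades elastin. Csf1r encodes the receptor for CSF1 and IL-34, on which the survival of most macrophages depends, and resident Kupffer cells carry it as well as recruited cells.

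The array reads RNA and not these regions. The promoters of Gpnmb, Mmp12, Cd63 and Lyz2 are shown, the 4 of the 5 genes that the promoter table used here holds. Each is the 250 bases upstream of the start that RefSeq's promoter table (GRCm38.p6) gives for the gene, written 5′ to 3′ on the gene's own strand. For Gpnmb, Mmp12 and Lyz2 that start is the edge of the gene's span. For Cd63, which has several RefSeq transcripts, it lies inside the span given further on, so the window is upstream of that start alone. Capitals mark GAGGAA, a form of the site bound by the myeloid factor PU.1, or TTCCTC, which is the same letters on the other strand. Other forms of that site were not searched.
Gpnmb (chr6:49036268-49036517, plus strand): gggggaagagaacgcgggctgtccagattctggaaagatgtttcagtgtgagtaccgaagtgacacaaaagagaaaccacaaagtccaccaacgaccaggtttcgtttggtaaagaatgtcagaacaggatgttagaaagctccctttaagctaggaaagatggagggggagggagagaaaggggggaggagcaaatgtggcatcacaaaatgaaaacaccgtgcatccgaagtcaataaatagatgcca
Mmp12 (chr9:7344147-7344396, plus strand): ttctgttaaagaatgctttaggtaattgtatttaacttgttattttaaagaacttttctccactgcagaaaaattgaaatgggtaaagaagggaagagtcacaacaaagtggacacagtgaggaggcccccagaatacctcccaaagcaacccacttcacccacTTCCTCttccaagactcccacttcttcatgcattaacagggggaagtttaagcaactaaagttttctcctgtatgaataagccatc
Cd63 (chr10:128909095-128909344, plus strand): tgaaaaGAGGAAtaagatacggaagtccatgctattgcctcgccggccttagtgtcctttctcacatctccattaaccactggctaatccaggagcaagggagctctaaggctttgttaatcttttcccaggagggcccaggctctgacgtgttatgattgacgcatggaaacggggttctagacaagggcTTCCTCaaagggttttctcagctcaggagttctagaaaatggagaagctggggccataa
Lyz2 (chr10:117282273-117282522, minus strand): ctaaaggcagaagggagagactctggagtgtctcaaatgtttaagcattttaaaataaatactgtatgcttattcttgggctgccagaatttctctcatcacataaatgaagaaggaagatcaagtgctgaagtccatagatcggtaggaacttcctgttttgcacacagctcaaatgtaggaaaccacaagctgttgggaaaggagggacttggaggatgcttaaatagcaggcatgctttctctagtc
This form stood once in the Mmp12 window, with its first base 86 bases upstream of the start. In the Cd63 window it stood 244 and 59 bases upstream of the start that the table uses. These exact letters were not in the windows of Gpnmb and Lyz2, and 23.3% of the 32851 promoters of the table hold them on either strand. The other motifs searched on both strands were the AP-1 site TGANTCA (in 6.75% of all promoters), the E-box CACGTG (6.02%), the M-box TCATGTG (3.25%) and the TATA box TATAAA (12.4%). None of these letter strings was in the 4 windows.

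The values are background-subtracted intensities on a linear scale, and a probe was taken as above noise on an array when it exceeded 1.645 times the SD of that array's noise, a limit of 17.1 to 32.5 units. Each array had 9907 to 11564 of its 24048 probes above noise, and pairs of arrays correlated at 0.944 to 0.992 across probes. Probes above noise on at least 6 arrays, 11317 in all, were tested. The 5 genes had 7 named probes, of which 6 were tested, and Gpnmb and Lyz2 had a pair each. RNA of whole liver cannot tell fewer cells of a type from less RNA per cell, which applies to each result that follows. The number of animals limits the precision, since the arrays give no counts.

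Gpnmb lies on chromosome 6 at 49036518 to 49058182. Its brighter probe read a lowest, median and highest intensity of -24.6, 2344 and 4441.3 in the transgenic livers, and of -7.3, 567.6 and 3333.2 in the wildtype livers. It was above noise in 5 of the 7 transgenic and 5 of the 9 wildtype animals, and the genotypes overlapped over nearly their whole ranges. The remaining animals had no Gpnmb signal above noise, so each genotype held livers with a bright Gpnmb signal and livers with none detectable. On the log2 scale (offset 16, quantile normalized) the SD over the 16 animals was 2.8, against a median of 0.2 over the tested probes, and 1 tested probe had a larger SD. The second Gpnmb probe was dim, at -20.5 to 60.2 units, and stood above noise in 6 of the 16 animals, 4 of them transgenic. Its profile over the animals resembled that of the brighter probe only in part, at a distance of 0.60 on the scale explained with the likeness values.

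Cd63, on chromosome 10 at 128896231 to 128912822, was above noise in all 16 livers. Its lowest, median and highest intensities were 155.2, 1766 and 2511.9 in the transgenic animals, and 102.7, 605.9 and 2468.2 in the wildtype animals. The brightest liver was 24.5 times the dimmest, and 24 of the tested probes varied more on the log2 scale (SD 1.57). Both genotypes held dim and bright livers, and their ranges overlapped.

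Lyz2, on chromosome 10 at 117277541 to 117282272, was also above noise in every liver. It read 286.0, 2570 and 4565.6 (lowest, median and highest) in the transgenic animals and 200.8, 749.4 and 3917.6 in the wildtype animals. The brightest liver was 22.7 times the dimmest, with an SD of 1.55 and 26 tested probes varying more. Its second probe was above noise on no array, at -15.7 to 19.7 units, so the Lyz2 results rest on 1 probe. Lyz1, the neighbouring and very similar lysozyme gene known best from Paneth cells of the gut, had a pair of named probes, and neither was above noise in any liver (-31.4 to 8.9 and -28.1 to 19.8 units). Whether the Lyz2 probe also binds Lyz1 RNA was not tested.

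Mmp12, on chromosome 9 at 7344397 to 7360461, followed Gpnmb in being above noise in some livers and not in others. Its lowest, median and highest intensities were 1.8, 433.6 and 770.2 in the transgenic animals and -11.3, 129.0 and 711.9 in the wildtype animals. It was above noise in 5 of the 7 transgenic and 5 of the 9 wildtype livers, with an SD of 1.65 over all 16 and 19 tested probes varying more.

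Csf1r, on chromosome 18 at 61105572 to 61131139, differed from the other members in its narrow range. It read 129.8, 288.9 and 398.7 in the transgenic animals and 167.9, 199.0 and 406.4 in the wildtype animals, and it was above noise in all 16. The brightest liver was 3.13 times the dimmest. Its SD on the log2 scale was 0.32, which 1754 tested probes (15.5%) exceeded. The receptor was thus read in every liver, those without detectable Gpnmb and Mmp12 included.

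**Figure D1:**
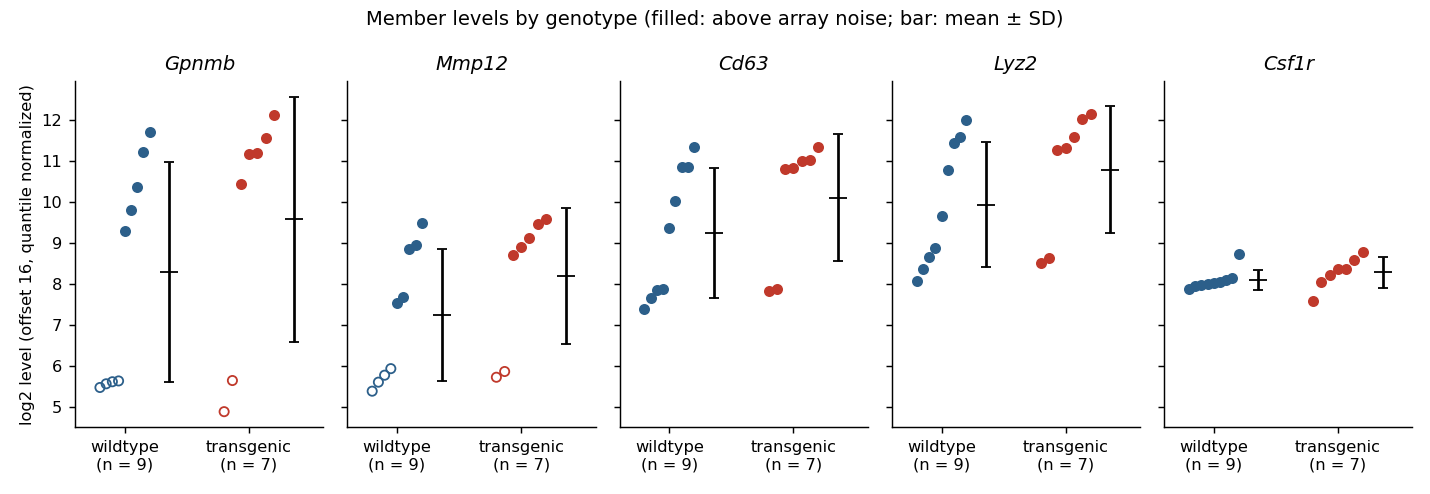
Log2 level (offset 16, quantile normalized) of the tested probe of each of the 5 genes (for Gpnmb the brighter) by genotype, with 1 point per animal (7 transgenic, 9 wildtype) and a bar at the mean with its SD. Gpnmb, Mmp12, Cd63 and Lyz2 are split into low and high animals within both genotypes, and Csf1r spans a narrow range. Levels of different genes come from different probes and are not comparable with each other.

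The comparison the study was built for is transgenic against wildtype liver, and no member passed its test. Across all probes 0 of 11317 (0%) were called at an adjusted p under 0.05 in limma, the lowest adjusted p was 0.932, and 332 (2.93%) had an unadjusted p under 0.05. Of the 6 tested probes of the members, 0 were called and 0 had an unadjusted p under 0.05 in this fit. All 6 had a higher mean in the transgenic livers, and the members vary together, so these directions are not separate observations.

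On the log2 scale the mean of Gpnmb was 9.58 ± 2.99 (SD, n = 7 transgenic livers) against 8.30 ± 2.68 (SD, n = 9 wildtype livers). The difference of 1.28 (SE 1.27) is a fold of 2.42, with a 95% interval of 0.379 to 15.5 (limma adjusted p = 0.932, exact permutation test over 11440 splits p = 0.352, unadjusted and two-sided). In 5 of the 7 transgenic animals Gpnmb lay above the wildtype mean. The interval holds a fall as well as a rise of several times. The SD within each genotype exceeds the difference between the means. The dim Gpnmb probe gave a difference of 0.27 (SE 0.217, limma adjusted p = 0.932).

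The other members gave the same picture at smaller size. Mmp12 averaged 8.20 ± 1.67 (n = 7) against 7.25 ± 1.61 (n = 9), a fold of 1.93 with a 95% interval of 0.657 to 5.68 (limma adjusted p = 0.932, exact permutation p = 0.255). Cd63 averaged 10.11 ± 1.55 against 9.25 ± 1.58, a fold of 1.81 with an interval of 0.646 to 5.08 (exact permutation p = 0.287). Lyz2 averaged 10.79 ± 1.55 against 9.94 ± 1.53, a fold of 1.80 with an interval of 0.654 to 4.96 (exact permutation p = 0.276). These intervals all reach from below 1 to about 5, and none of the differences was larger than the spread between animals. Csf1r averaged 8.29 ± 0.39 against 8.10 ± 0.25, a fold of 1.14 (interval 0.913 to 1.41, exact permutation p = 0.271). Its interval is the narrowest of the members. The undetected Lyz2 probe differed by 0.01 and was not tested in limma.

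**Figure D2:**
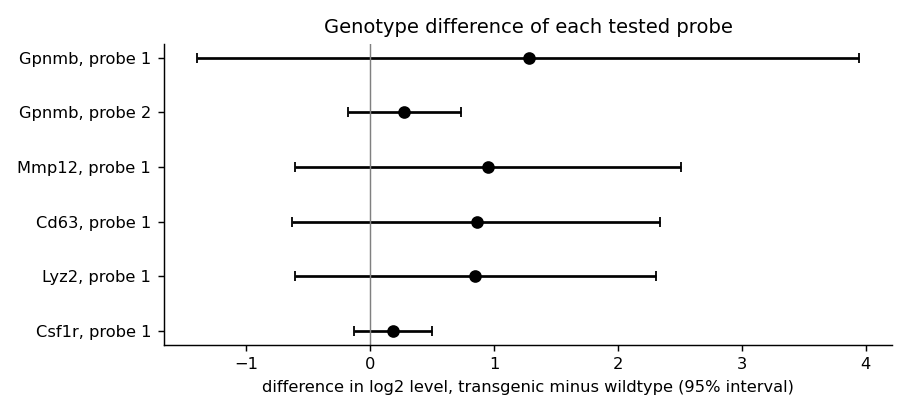
Difference in log2 level, transgenic minus wildtype, for the tested probes of the 5 genes, as the limma estimate with its 95% interval (7 against 9 animals). Every interval crosses 0, from Gpnmb at 1.28 (-1.40 to 3.95) to Csf1r at 0.18 (-0.13 to 0.50).

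Ordered by Gpnmb, the 16 livers fell into 6 without a detectable signal and 10 with one, with a gap of 3.64 log2 units between them and gaps of at most 0.73 within the 10. The lower side of that gap is not above noise, so its size depends on the offset and background model. The 6 livers were transgenic animals 1 and 2 and wildtype animals 1, 2, 8 and 9, and the 10 were 5 of each genotype. In the 6 livers Gpnmb read -24.6 to -0.9 units, Mmp12 -11.3 to 9.5, Cd63 102.7 to 169.3 and Lyz2 200.8 to 385.9. Cd63 and Lyz2 were thus low but still above noise where Gpnmb and Mmp12 were not. Wildtype animal 3 came next, with 567.6 for Gpnmb, 129.0 for Mmp12, 605.9 for Cd63 and 749.4 for Lyz2. It was followed by wildtype animal 7, with 868.5, 155.9, 1014.5 and 1699.0 for the same genes. These livers lay between the others on all 4 genes.

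The remaining 8 livers read 1348.5 to 4441.3 for Gpnmb, 410.2 to 770.2 for Mmp12, 1749.8 to 2511.9 for Cd63 and 2382.9 to 4565.6 for Lyz2. All 8 exceeded the other livers on each of these genes. Their order differed from gene to gene: the highest Gpnmb, Cd63 and Lyz2 were all in transgenic animal 7 (4441.3, 2511.9 and 4565.6), whose Mmp12 of 433.6 was among the lower values of the 8, and the highest Mmp12 was in transgenic animal 4. Csf1r read 129.8 to 199.0 in the 6 livers without detectable Gpnmb and 186.0 to 406.4 in the 10 with it, so its ranges overlapped where those of Gpnmb, Mmp12, Cd63 and Lyz2 did not. The 6 livers had 9907 to 10252 probes above noise and wildtype animal 3 had 9956, against 10690 to 11564 in the other 9. The part of this difference between arrays in the levels was not tested.

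**Figure D3:**
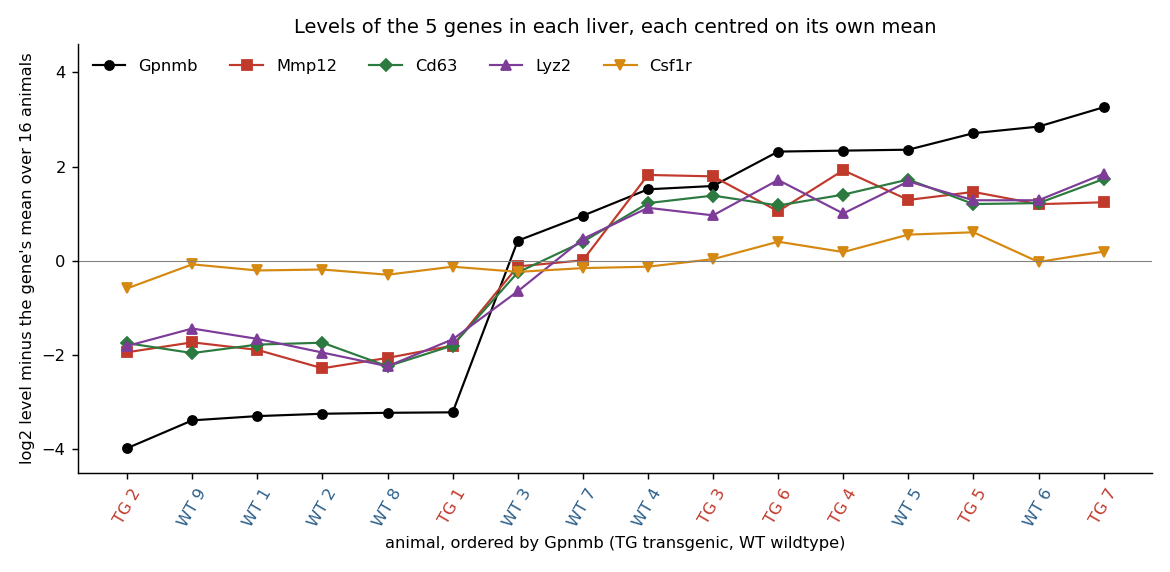
Log2 level of each of the 5 genes minus its own mean over the 16 animals, with the animals ordered along the horizontal axis by their Gpnmb level and labelled by genotype (TG transgenic, WT wildtype). Gpnmb, Mmp12, Cd63 and Lyz2 step up at wildtype animal 3 after 6 low animals of both genotypes, and Csf1r stays within a narrow band.

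Because the animals fall into separate sets, correlations between members were computed within each set. The members were chosen by these same values and the sets are parted by Gpnmb itself, so the correlations are a description, with no test. Among the 10 livers with detectable Gpnmb, Gpnmb and Lyz2 had a Pearson r of 0.87 and a Spearman rho of 0.79. Gpnmb and Cd63 gave r = 0.82 and rho = 0.62, and Cd63 and Lyz2 gave r = 0.92 and rho = 0.52. The points of each pair share their arrays, and with them any difference in signal between arrays.

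Without the 2 animals farthest from the median, wildtype 3 and 7 in each case, r fell to 0.61 for Gpnmb and Lyz2, 0.33 for Gpnmb and Cd63 and 0.47 for Cd63 and Lyz2. These values thus rest in large part on those livers. For Mmp12 the sign rests on them too. Its r with Cd63 was 0.82 with all 10 livers and -0.10 without the farthest, with Gpnmb 0.57 and -0.64, and with Lyz2 0.63 and -0.85. Csf1r correlated with Lyz2 at 0.69 and with Gpnmb at 0.66, and at 0.49 and 0.37 without those livers. In the 6 livers Gpnmb and Mmp12 are within noise, and no relation with them is read there. Cd63 and Lyz2, above noise in all 6, gave r = 0.48 and rho = -0.09 there.

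**Figure D4:**
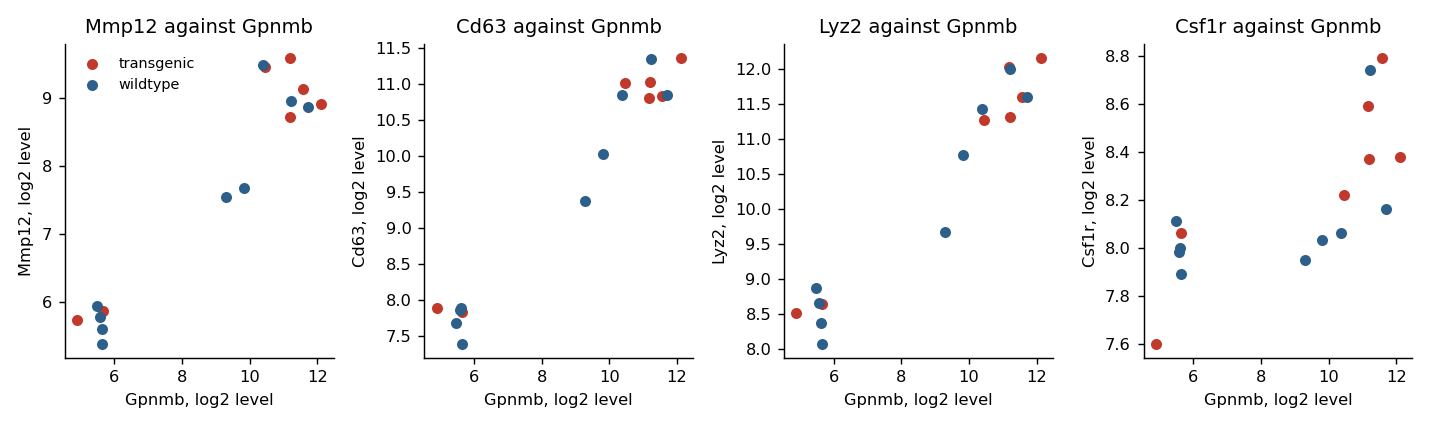
Log2 level of Mmp12, Cd63, Lyz2 and Csf1r (vertical axes) against that of Gpnmb (horizontal axes), with 1 point per animal coloured by genotype. The 6 animals without detectable Gpnmb stand apart from the 10 with it, and among the 10 the points of wildtype 3 and 7 lie lowest.

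Some titles carry a number that several animals share, and what it marks is not given in the labels. Wildtype animals 1 and 2 share a number, and Gpnmb was not above noise in either. Transgenic animals 3, 4 and 5 share another and spanned 1.11 log2 units in Gpnmb, while wildtype animal 8, which has the same number, was not above noise. Transgenic 2 and wildtype 3 share a number, as do transgenic 6 and wildtype 9, and in each of these pairs Gpnmb was above noise in 1 animal and not in the other. Animals of a number thus stood on 1 side of the gap in some cases and on both sides in others. Only numbers 9, 12 and 13 hold both genotypes, and wildtype animal 8 is the only wildtype of number 12. In number 9 the wildtype animal was the higher (Cd63 9.38 against 7.88). In numbers 12 and 13 the transgenic animals were (in 13, Cd63 10.8 against 7.67). With the number as a fixed block, over these few animals of mixed direction, the genotype differences were larger: 2.70 for Gpnmb (unadjusted p = 0.0828), 1.90 for Mmp12 (0.0304), 2.0 for Cd63 (0.015) and 1.99 for Lyz2 (0.0095). For Csf1r the difference was 0.28 (unadjusted p = 0.202). None of the 5 passed after adjustment over all probes in limma (adjusted p from 0.301 to 0.566), and 1509 probes had an unadjusted p under 0.05 in that fit.

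Likeness to Gpnmb was measured as a distance, the root mean square difference between profiles over the 16 animals after each was scaled to an SD of 1. It is 0 for profiles of the same shape, 1.37 for unrelated and 1.94 for mirrored profiles, and profiles under 0.60 are called alike here. The distance uses the values that chose the members and is a description. Among 3967 other named genes 340 (8.57%) were alike to Gpnmb, and the median distance was 1.41. With arrays scaled to a common median in place of quantile normalization the share was 17.6%. Cd63 lay at 0.20 and ranked 5th, Lyz2 at 0.23 and ranked 10th, and Mmp12 at 0.29 and ranked 25th. Mmp12 passed the filter for tested probes only through livers with detectable Gpnmb, so its likeness may follow from that filter. Csf1r, at 0.72, ranked 521st and was not alike by this limit. Among themselves Cd63 and Lyz2 stood at 0.17 and Cd63 and Mmp12 at 0.21.

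The named genes nearest to Gpnmb were led by Abcg1, a cholesterol exporter of macrophages, at 0.14. It read 117.3 to 1274.6 units with a median of 857.2 over the 16 livers. Next came Bcl2a1b, an anti-apoptotic gene of myeloid cells, at 0.18 (59.9 to 1216.9 units), and Tnfsf13, the cytokine APRIL, at 0.18 (157.9 to 1125.8). Bcl2a1d lay at 0.20, as did Cd63, and since Bcl2a1b and Bcl2a1d are near-identical copies their probes may read the same RNA. At the mirrored end stood Nat8f4, Cmah, Ces3a and Mup4, each at 1.92. Mup4 encodes a major urinary protein and Ces3a a carboxylesterase, both made by hepatocytes.

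Of 26 other genes in a list for lipid-associated macrophages, 11 had a named probe and 9 were tested. Against wildtype 7 were higher and 2 lower in transgenic liver, 0 were called, and the median difference was 0.165 log2 units. In 6 of the 9 (66.7%) the profile was alike to Gpnmb, beside 8.57% of all named genes. Lpl, the lipoprotein lipase, lay at 0.21 and read 99.2, 1947 and 3346.0 units (lowest, median and highest over 16 livers), a ratio of 33.7. Anxa5, a phosphatidylserine-binding annexin, lay at 0.28 and read 397.8, 3079 and 5463.2. Spp1, osteopontin, which is also on the list for cholangiocytes, lay at 0.52 and read 189.8, 763.3 and 2602.2.

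Cd68, a lysosomal glycoprotein of macrophages, lay at 0.36 and was above noise in 10 livers (-8.1 to 274.9 units). The lysosomal proteases Ctsz and Ctsb were alike at 0.40 and 0.41, with a much smaller span of 1.92 and 1.43 times from lowest to highest. Apoe (1.48), which hepatocytes also make in quantity, Fabp4 (1.70) and Ctsl (1.72) were not alike, and Cd36 and Fabp5 were not tested. Trem2, Itgax, Cd9 and Lgals3, further genes of this state, were not analysed here.

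Of 17 general macrophage genes on a list besides the members, 6 had a named probe and 5 were tested. All 5 had a higher mean in transgenic liver, by 0.04 (Mertk) to 0.49 (Cd68) log2 units, and 0 were called. In 3 (60%) the profile was alike to Gpnmb, beside 8.57% of all named genes. Genes alike to Gpnmb vary together, so the directions within this list and the lipid-associated list are not separate observations. C1qa and C1qb, which encode chains of complement C1q, lay at 0.34 and 0.48, and their brightest livers were 3.16 and 3.26 times the dimmest, close to the 3.13 of Csf1r. Mertk, a receptor for apoptotic cells, lay at 0.99 with a span of 1.83 times, and Cybb at 1.44. The third alike gene of this list is Cd68, given with the lipid-associated genes. The summed intensity of the 5 was 1027 to 2769 units in transgenic and 1112 to 2628 in wildtype livers. The share of macrophages in each liver was not tested.

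Of the Kupffer cell list only Nr1h3, the oxysterol receptor LXR alpha, was tested (1.59), so a loss or gain of Kupffer cells cannot be read. Around Csf1r, 4 of 17 genes of its axis were tested, 0 were called and 0 were alike to Gpnmb: Adam17, a protease that sheds the receptor, lay at 0.75, Cebpb at 1.54, Shc1 at 1.56 and Cebpa at 1.81. The ligands Csf1 and Il34 and the factor Spi1 (PU.1) were not analysed here. Of the metalloproteinases, their substrate elastin and inhibitors, 5 of 19 were tested, 0 were called and 0 were alike to Gpnmb: Eln at 0.72, Timp2 at 0.89, Mmp19 at 1.14, Timp3 at 1.29 and Serpina1a at 1.90. Of 5 tested tetraspanins 2 (40%) were alike, beside 8.57% of all named genes, and 0 were called. Cd81 lay at 0.34 with a span of 1.3 times, and the leukocyte tetraspanin Cd53 at 0.37. Cd151 at 0.70, Cd82 at 0.89 and Tspan31 at 1.90, near the mirrored end, were not alike. The factors Mitf, Tfe3, Tfeb and Tfec, which drive lysosomal genes, were not analysed here.

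Markers of other cells moved with Gpnmb in part. Of 6 tested stellate cell and fibroblast genes 3 (50%) were alike, beside 8.57% of all named genes. They were Col3a1 at 0.40 (-15.1 to 82.9 units, above noise in 8 livers), Col1a1 at 0.46 (-9.1 to 258.7, in 12) and Dcn at 0.55 (in 16). Not alike were Colec11 at 0.72, Reln at 1.06 and Lrat, the retinoid enzyme of quiescent stellate cells, at 1.74. Of 2 tested cholangiocyte genes 1 (50%) was alike: Spp1, which is on the lipid-associated list too. Cldn4, the other, lay at 1.25. The neutrophil list had S100a9 alike at 0.44 (7.2 to 286.6 units), with Csf3r at 0.88 and Cxcr2 at 1.24, and its summed intensity was 45.7 to 353.7 in transgenic and 50.4 to 346.6 in wildtype livers. S100a4, the only tested monocyte gene, lay at 0.44 and was above noise in 7 livers, and S100a9 in 10. A dim gene can pass the filter of 6 arrays through the livers where it is high. Likeness to Gpnmb may then follow from the filter, and no support is drawn from it. This applies to Col3a1, S100a9, S100a4, Cd68, Mmp12 and the second Gpnmb probe. Mmp12 and that probe were above noise only in livers with detectable Gpnmb.

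Endothelial Clec4g (0.86), Emcn (1.18) and Pecam1 (1.23), the T cell gene Cd3e (0.98) and the immunoglobulin genes Igkc (1.40) and Ighm (1.88) were not alike. Hepatocyte Trf, Apoa1 and Serpina1a stood at 1.66, 1.82 and 1.90. Dct, the only tested gene of melanocytes, which also express Gpnmb, stood near the mirrored end at 1.90. No gene of these lists was called between genotypes. The part of each of these cell types in the levels of Gpnmb, Mmp12, Cd63 and Lyz2 was not tested.

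**Figure D5:**
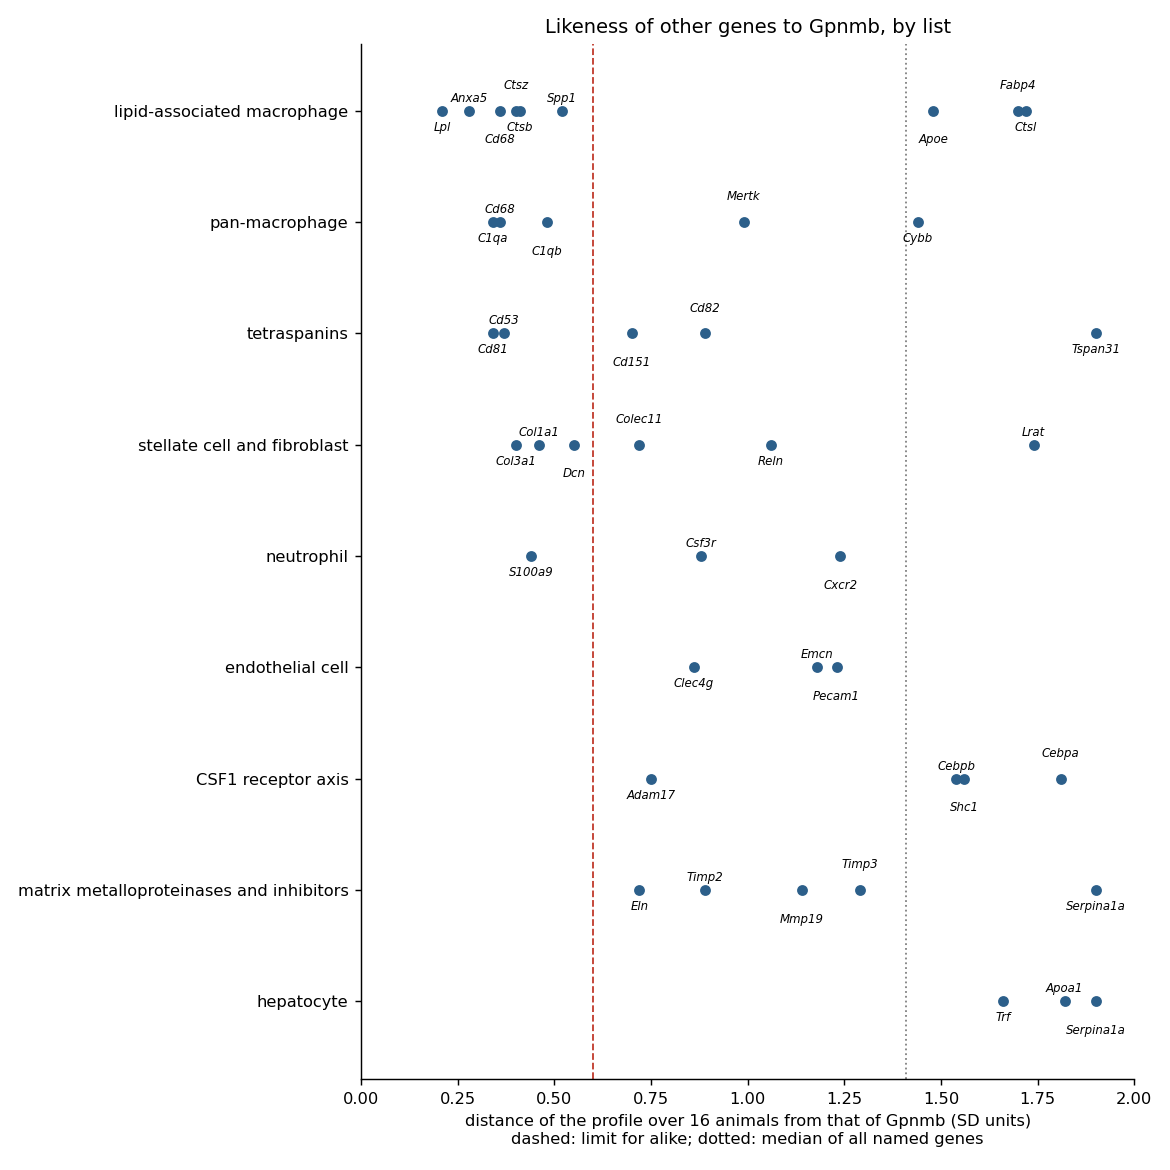
Distance of named genes from Gpnmb (horizontal axis, in SD units over the 16 animals), by gene list (vertical axis), with 1 point per tested gene, a dashed line at 0.60, the limit for alike, and a dotted line at 1.41, the median of all named genes. The lipid-associated and general macrophage genes include most points left of the dashed line, with 6 of 9 and 3 of 5, and 3 of 6 stellate cell and fibroblast genes lie there too.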

How the data were processed

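Total liver RNA was labelled as biotin cRNA and read on Illumina Mouse Ref-8 bead arrays. The authors deposited linear intensities of 24048 probes per animal, made with BeadStudio 1.5.1.3 per the submitters' processing notes. Between 30.0% and 33.8% of an array's values were below 0 and array means were 331.4 to 333.5, as a background subtraction and a common scaling leave them. A further table has 128 per-sample columns named by chip position, which no label ties to animals, and it was not used. Probes were named through RefSeq gene identifiers (GRCm38.p6), read from the padded number that 9523 identifiers hold. This gave a gene to 8884 of them (93.3%), or 36.9% of all probes.

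Intensities were corrected with normexp per array (saddle-point fit, offset 16), put on the log2 scale, quantile normalized and fitted with lmFit and eBayes in limma 3.58.1 (R 4.3.3), two-sided, without covariates, with Benjamini-Hochberg adjustment over the 11317 tested probes and a threshold of 0.05. Noise SD was the root mean square of an array's negative values. The offset compresses folds of dim probes, and quantile normalization hides a shift shared by most genes. A gene other than the members was read by its tested probe of highest mean. The fit was tested on simulated data, with changes planted in probes drawn at random from all those tested. That does not show what could be found in genes as variable as Gpnmb.

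The rule for named genes took the members, the 6 named genes nearest to Gpnmb and the 4 farthest, from each list up to 4 tested genes nearest to Gpnmb and up to 2 farthest, and Lyz1; Ctsb, Spp1 and Apoe are named after their values were seen. A gene that the rule names is not reported here. The permutation tests planned for correlations between members are not reported, since the same values chose the members. The members and lists were chosen with earlier results of these data known. The limma p-values set the difference between genotype means against the variation between these samples, taken as separate animals. The permutation p-values place that difference among all splits of the animals. Alternatives covered background correction, offset, scaling, probe filter, title number, array weights and leaving out animals.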

Additional observations from a re-analysis of the deposited data

Results flagged for a closer look

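Of 14 groups of values checked for a sample far from the rest, 2 held one, and chance marks about 1 group in 20. The groups share animals, and some genes split into low and high animals, so that rate is only a rough guide. The highest Csf1r level in the wildtype livers, 8.74 on the log2 scale in wildtype animal 5, lay apart from the other 8 wildtype animals, with a gap to the nearest of them of 0.684 of the group's range. In the same animal the Cd63 and Lyz2 intensities (2468.2 and 3917.6) were also the highest of the wildtype group. The lowest value of the second Lyz2 probe in the wildtype livers, 5.06, lay apart by 0.626 of the range, and this probe was above noise on no array.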

How the results depend on the processing

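No probe was called between genotypes under any of the 27 alternatives run, with a lowest adjusted p of 0.15. Unadjusted p under 0.05 was met by 219 to 797 probes with 1 animal left out. Among the other alternatives the counts ran from 153 (common median) to 1509 (title number as a fixed block), with 1197 under array weights and 460 with the title number as a random block (consensus correlation 0.168). The member differences stayed positive and uncalled after adjustment throughout. Besides the fixed block, limma's unadjusted p fell under 0.05 with array weights for Mmp12 (1.36, unadjusted 0.0401, adjusted p = 0.465) and Csf1r (0.31, unadjusted 0.0321, adjusted p = 0.465). It did so for Csf1r without transgenic animal 2 (0.30, unadjusted 0.0326, limma adjusted p = 0.624). With 1 animal left out they were 0.85 to 2.06 for Gpnmb, 0.72 to 1.36 for Mmp12, 0.62 to 1.24 for Cd63, 0.62 to 1.23 for Lyz2 and 0.10 to 0.30 for Csf1r. The share of named genes alike to Gpnmb moved from 8.57% to 17.6% with arrays scaled to a common median. The cause was not tested. In the 10 livers r, given without a test, ran from 0.41 (Mmp12 with Csf1r) to 0.92 (Cd63 with Lyz2) with the processing described above. For the same pairs it was 0.44 and 0.92 with a floor of 16 in place of the background model. With a common median r was higher for every pair of members. For Gpnmb it was then 0.66 with Mmp12, 0.88 with Cd63, 0.91 with Lyz2 and 0.79 with Csf1r. For Mmp12 it was 0.84 with Cd63, 0.70 with Lyz2 and 0.55 with Csf1r. Cd63 gave 0.95 with Lyz2 and 0.76 with Csf1r, and Lyz2 gave 0.83 with Csf1r. No r without the livers farthest from the median is given for these alternatives. At the floor Gpnmb and Mmp12 are constant in the 6 livers and give no relation there, and a filter on probes above noise on all 16 arrays removes both genes. The title numbers are not known to pair animals, and the labels number no replicates. Signal over background limits Gpnmb and Mmp12 in 6 livers, where only an upper bound exists.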
